A study of Mus musculus with 8 samples.

Results

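The 10 genes described here carry the conversion of carbohydrate carbon into fatty acids, or de novo lipogenesis, in mouse primary hepatocytes. They were taken from the deposited table of raw read counts by gene name (Srebf1, Mlxipl, Acly, Acaca, Acacb, Fasn, Scd1, Elovl6, Me1 and Thrsp), and all 10 were found among its 56748 genes. Each passed the filter on low counts that left 14279 genes for testing.

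The hepatocytes came from C57BL/6J mice that were homozygous for floxed alleles of both Yap and Taz, the transcriptional coactivators of the Hippo pathway. The study's methods give these mice an age of 7 or 8 weeks at the virus injection, and 8 weeks for mice used to isolate hepatocytes. Knockout (KO) mice received the adeno-associated virus AAV8-TBG-Cre, in which the hepatocyte-active thyroxine-binding globulin promoter drives Cre. Control mice, labelled wild type (WT), received AAV8-TBG-Null, so the floxed alleles and the viral exposure were common to all animals, and the study's methods also describe a Cre-dependent tdTomato reporter in this strain. Cells were isolated 10 days after the virus and cultured for 24 h on a collagen-coated hydrogel of 1 kPa (soft) or 20 kPa (stiff). This gave 4 groups of 2 libraries: WT soft, WT stiff, KO soft and KO stiff. The labels do not say whether the libraries of a group came from separate animals or cultures, so every p-value measures the spread between these libraries only.

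In the liver, insulin and carbohydrate feeding raise lipogenesis through a pair of transcription factors. SREBP-1c, encoded by Srebf1, is induced by the oxysterol receptor LXRα, can be retained in the endoplasmic reticulum and is activated by proteolysis. ChREBP, encoded by Mlxipl, responds to glucose metabolites. Their shared targets form a chain: ATP-citrate lyase (Acly) makes cytosolic acetyl-CoA from citrate, acetyl-CoA carboxylases (Acaca and Acacb) make malonyl-CoA, fatty acid synthase (Fasn) builds palmitate with NADPH supplied in part by malic enzyme (Me1), and Elovl6 and Scd1 lengthen and desaturate the product.

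Library totals lay between 18324083 and 26442310 counts, and 3 counts, the most that a count of 0 allows at 95% confidence, were worth 0.113 to 0.164 CPM, the count scaled to a common library total (counting error only). The genotype labels held in every library: Yap1 was at 95.5 to 140.5 normalized CPM in the 4 WT libraries against 28.4 to 31.8 in the 4 KO libraries, and Wwtr1, which encodes TAZ, at 41.5 to 65.2 against 13.7 to 16.6. The labels give the sex of the mice in conflicting ways. The Y-linked genes Ddx3y, Eif2s3y, Kdm5d and Uty had 0 counts in all 8 libraries and Xist had 4818 to 8443 counts, as in cells of female mice. Of 12 hepatocyte markers, 11 were in the table, and their summed level was 66826 to 67543 CPM of the library total in KO and 92298 to 95279 in WT. Albumin (Alb) made up most of that sum, and the other 10 summed to 12074 to 12156 CPM in WT soft, 9785 to 9793 in WT stiff and 11133 to 11458 in KO. The adipocyte markers Adipoq, Lep and Retn were at 0 in all 8 libraries, and the summed level of all 7 adipocyte markers was 4.72 to 9.51 CPM. Markers of other liver cells moved with the groups. The 9 endothelial markers summed to 83.9 to 89.4 CPM in WT soft, 61.9 to 63.4 in WT stiff and 110.3 to 124 in KO. The 9 Kupffer cell and macrophage markers summed to 65.7 to 67.0, 46.6 to 50.5 and 95.3 to 99.3 CPM in the same order, and the 10 stellate cell and fibroblast markers to 36.4 to 36.9, 24.4 to 26.2 and 54.0 to 58.5 CPM. The 8 cholangiocyte markers, with Cftr at 0 in every library, summed to 561 to 591, 609 to 612 and 347 to 374 CPM. The part of these cells in the results below was not tested, and in RNA from a mixed culture fewer cells of a type and less RNA per cell cannot be told apart.

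The starts of 4 of the 10 genes are shown because their transcripts followed different patterns. Fasn and Thrsp were called lower in KO than WT on the soft hydrogel, whereas Acly and Mlxipl were called lower in KO on neither hydrogel. Srebf1 and Elovl6, whose windows are not shown, were also called lower in KO on the soft hydrogel, and the Elovl6 window held no CCAAT box. A link between these letters and the patterns was not tested. Each window holds 250 bases before and 50 bases after a RefSeq transcript start (GRCm38.p6), written 5′ to 3′ along the gene, with capitals marking CCAAT boxes (CCAAT or its complement) and E-boxes (CACGTG). The windows lie at chr11:120824498-120824797 (minus strand), chr7:97417501-97417800 (minus strand), chr11:100527951-100528250 (minus strand) and chr5:135089640-135089939 (plus strand, the first of the gene's windows).
Fasn: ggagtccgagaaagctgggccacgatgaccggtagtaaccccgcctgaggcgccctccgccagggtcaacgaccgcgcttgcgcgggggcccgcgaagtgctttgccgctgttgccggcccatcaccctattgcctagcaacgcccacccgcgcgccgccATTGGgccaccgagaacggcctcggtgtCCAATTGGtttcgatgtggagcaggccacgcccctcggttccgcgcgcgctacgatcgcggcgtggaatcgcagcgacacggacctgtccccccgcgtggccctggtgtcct
Thrsp: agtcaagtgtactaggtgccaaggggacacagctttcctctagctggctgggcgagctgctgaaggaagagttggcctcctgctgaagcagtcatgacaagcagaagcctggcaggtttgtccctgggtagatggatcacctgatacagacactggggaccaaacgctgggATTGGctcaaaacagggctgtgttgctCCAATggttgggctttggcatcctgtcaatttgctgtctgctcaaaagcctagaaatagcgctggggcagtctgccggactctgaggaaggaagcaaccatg
Acly: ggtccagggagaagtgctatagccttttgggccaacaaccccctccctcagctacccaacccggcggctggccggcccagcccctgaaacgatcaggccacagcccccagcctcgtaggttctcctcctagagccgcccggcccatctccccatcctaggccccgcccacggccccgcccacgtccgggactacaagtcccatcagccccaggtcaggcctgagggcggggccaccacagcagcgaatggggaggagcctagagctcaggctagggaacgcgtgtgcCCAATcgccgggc
Mlxipl: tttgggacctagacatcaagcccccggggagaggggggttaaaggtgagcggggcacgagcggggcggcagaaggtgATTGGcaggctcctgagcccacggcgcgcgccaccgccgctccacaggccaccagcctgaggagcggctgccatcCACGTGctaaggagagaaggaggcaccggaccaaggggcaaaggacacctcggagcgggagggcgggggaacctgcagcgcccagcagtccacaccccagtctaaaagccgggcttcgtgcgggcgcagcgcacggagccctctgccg

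RefSeq gave 13 such windows for 9 of the genes, and Scd1 is named only. CCAAT, the box bound by NF-Y, stood on either strand in 8 of the 13 windows, belonging to Srebf1, Mlxipl, Acly, Acacb, Fasn, Me1 and Thrsp, against 37.4% of all 32851 windows. In the Fasn window it occurred 3 times, of which a pair overlap on opposite strands, and in the Thrsp window 2 times. The E-box letters CACGTG, which are their own complement, were found in the first Mlxipl window only (7.15% of all windows). The sterol regulatory element letters TCACNCCA were found in the second Mlxipl window only (4.36%), and GGAATG, the core bound by TEAD factors, in a Me1 window only (14.7%). AGGTCA, the single site of many nuclear receptors, stood in windows of Acly, Acacb and Elovl6 (16.3% of all windows), and a direct repeat of it with a gap of 4 bases, the LXR arrangement, in none of the 13 and in 5 of all 32851. These are matches of letters, not measured binding.

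Levels are given as normalized CPM, that is, CPM after scaling of the libraries by the TMM method. A gene was called changed where edgeR's quasi-likelihood test gave a Benjamini-Hochberg adjusted p under 0.05 over all 14279 genes and the absolute log2 fold change was over 0.5. In WT cells the pathway was lower on the stiff hydrogel: 6 of the 10 genes were called lower on the stiff hydrogel and 0 higher, beside 9.26% of all tested genes called lower and 10.0% called higher (0 of the 10 were higher at an unadjusted p under 0.05 in edgeR, or called higher by DESeq2). Their median log2 fold change was -0.75, against -0.01 over all genes, and the other 4 genes had values between -0.44 and -0.26. In all 10 genes both WT stiff libraries were below both WT soft libraries, which held for 34.8% of all genes. In KO cells 0 of the 10 genes were called between stiff and soft, beside 0.0210% of all genes, with log2 fold changes from -0.08 to 0.17. With edgeR, 3 of them were higher and 0 lower at an unadjusted p under 0.05, and DESeq2 also called 0.

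The difference between these stiffness effects, tested as an interaction, was called in 6 genes (Srebf1, Mlxipl, Acly, Acaca, Acacb and Fasn), all with a positive value, beside 8.64% of all genes called positive and 8.21% called negative. Scd1 (0.42 ± 0.03 on the log2 scale), Elovl6 (0.35 ± 0.08) and Me1 (0.30 ± 0.05) had positive interactions under the fold threshold, with edgeR adjusted p of 0.00161 or less. On the soft hydrogel the KO had 4 genes called lower than WT and 0 higher, beside 4.65% and 2.02% of all genes. With edgeR, 3 were higher at an unadjusted p under 0.05 (Mlxipl, Acaca and Me1), and DESeq2 called 0 higher. These 3 had edgeR adjusted p of 0.0108 or less and log2 fold changes under the threshold. On the stiff hydrogel 5 genes were called higher in KO and 2 lower, beside 13.7% and 15.0% of all genes. These comparisons share libraries, so each gene's values are set out group by group.

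**Figure D1:**
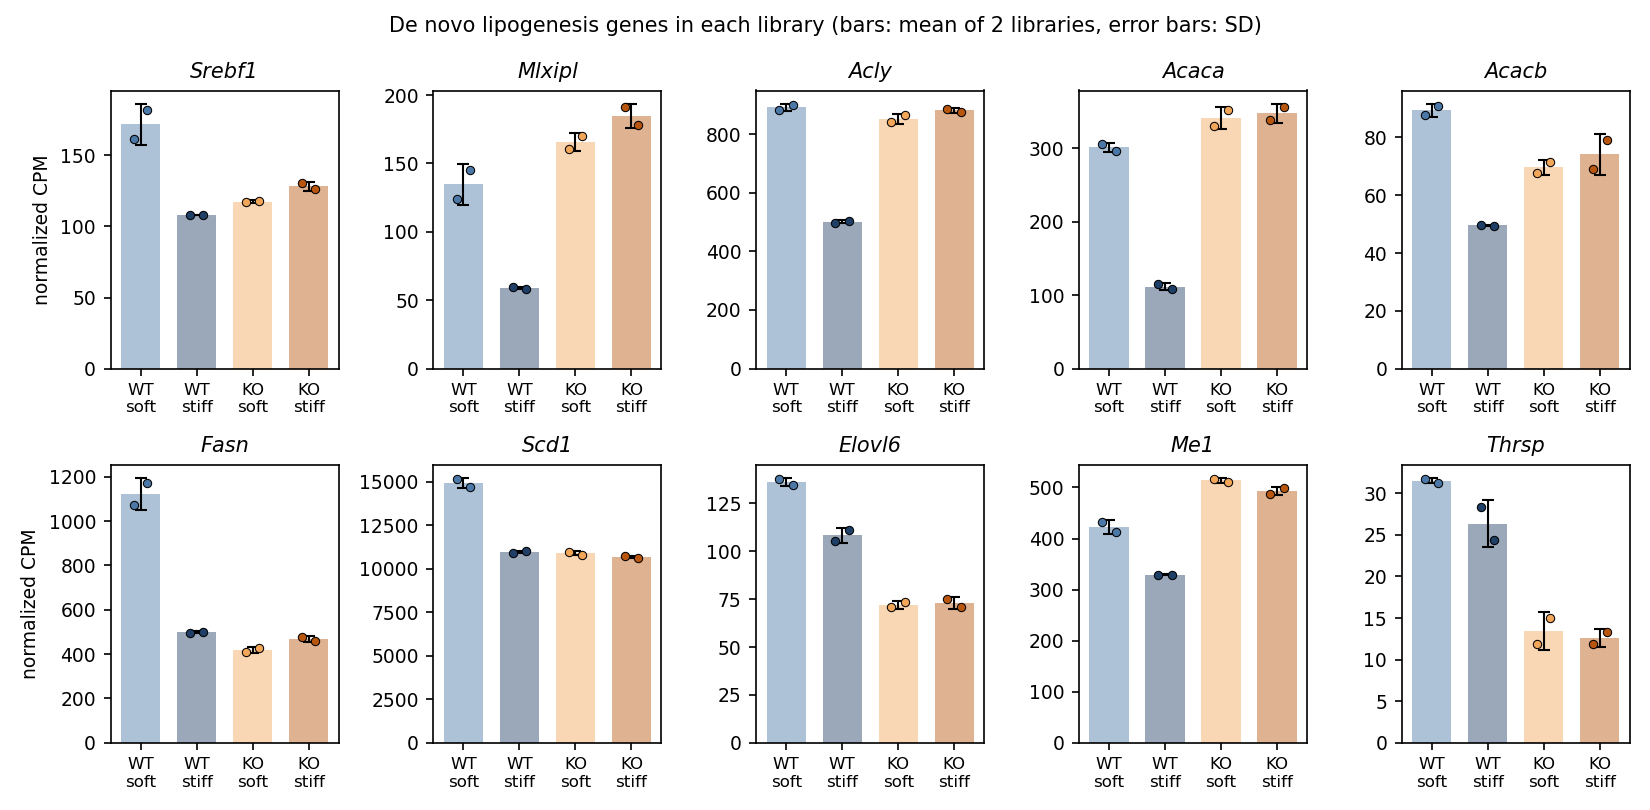
Normalized CPM of the 10 genes (y axis, from 0, own scale for each gene) in the 4 groups (x axis). Points are libraries, bars the mean of 2 libraries and error bars the SD. In Acly, Acaca and Mlxipl only the WT stiff bar is low, whereas in Fasn and Scd1 the WT soft bar stands alone as the high one, and in Elovl6 and Thrsp both KO bars are low.

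The factor genes differed from each other. Srebf1 (ENSMUSG00000020538, chr11:60089915-60113407 as the deposited table gives it) was at 162 and 182 CPM in the WT soft libraries, 108 and 108 in WT stiff, 117 and 118 in KO soft and 131 and 126 in KO stiff. Both WT soft libraries were above the other 6, and the KO libraries lay between the WT groups without overlap. Its log2 fold change from soft to stiff was -0.67 ± 0.06 (SE) in WT (edgeR adjusted p = 1.83e-08) and 0.13 ± 0.06 in KO (adjusted p = 0.634), and the interaction was 0.79 ± 0.08 (adjusted p = 3.63e-07). On the soft hydrogel KO was lower than WT by a log2 fold change of -0.55 ± 0.05 (edgeR adjusted p = 6.69e-07), a call that was lost without WT soft library 2 (-0.46) and with scaling by library size alone (-0.49). On the stiff hydrogel the value was 0.24 ± 0.06, under the fold threshold (edgeR adjusted p = 0.0013). The table counts the gene as a whole and does not separate SREBP-1a from SREBP-1c, and Srebf1 overlaps Rai1 of the opposite strand (mean counts of 2822 for Srebf1 and 628 for Rai1).

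Mlxipl (ENSMUSG00000005373, chr5:135118744-135167236) was at 124 and 145 CPM in WT soft, 59.4 and 58.3 in WT stiff, 161 and 170.2 in KO soft and 191 and 178 in KO stiff. Every KO library was above every WT library, and the WT stiff pair was the lowest. It fell by 1.19 ± 0.07 on the log2 scale from soft to stiff in WT (edgeR adjusted p = 8.16e-11) and had a value of 0.16 ± 0.06 in KO (adjusted p = 0.61), with an interaction of 1.35 ± 0.09 (adjusted p = 2.66e-09). KO exceeded WT by 1.65 ± 0.07 on the stiff hydrogel (edgeR adjusted p = 3.50e-13), where the KO level was 314% of the WT level, and the soft value of 0.30 ± 0.06 was under the fold threshold (adjusted p = 0.00218). Transcripts of the paired lipogenic factors therefore took different orders over the 4 groups: Srebf1 was highest in WT soft, Mlxipl in KO stiff.

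Acly (ENSMUSG00000020917, chr11:100367179-100418826), the entry enzyme, was at 883 and 901 CPM in WT soft, 498 and 505 in WT stiff, 840.3 and 866 in KO soft and 888 and 875 in KO stiff. Only the WT stiff libraries stood apart, at 56.2% of the WT soft mean. The stiffness effect in WT was -0.83 ± 0.03 (log2, edgeR adjusted p = 1.18e-12) and in KO 0.05 ± 0.03 (adjusted p = 0.749), with an interaction of 0.88 ± 0.05 (adjusted p = 1.54e-10). Between genotypes the log2 fold change was -0.06 ± 0.03 on the soft hydrogel (edgeR adjusted p = 0.222) and 0.81 ± 0.03 on the stiff hydrogel (adjusted p = 5.70e-13).

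Acaca (ENSMUSG00000020532, chr11:84020498-84292477) encodes the cytosolic carboxylase that commits acetyl-CoA to synthesis, and it had the largest fall of the 10 genes in WT. It was at 306 and 297 CPM in WT soft, 115 and 108 in WT stiff, 331 and 352 in KO soft and 338 and 357 in KO stiff. WT stiff was at 37.1% of WT soft, and all 4 KO libraries were above both WT soft libraries. The log2 fold change from soft to stiff was -1.43 ± 0.05 in WT (edgeR adjusted p = 9.64e-14) and 0.03 ± 0.05 in KO (adjusted p = 0.918), and the interaction was 1.46 ± 0.07 (adjusted p = 1.63e-11). KO exceeded WT by 1.64 ± 0.05 on the stiff hydrogel (edgeR adjusted p = 5.43e-15) and by 0.18 ± 0.05 on the soft one, under the fold threshold (adjusted p = 0.0108). Its counts are uncertain in part: 49.6% of the 64-base windows of its longest transcript also occur in another gene, the processed pseudogene Gm5182, with 616 counts on average against 5975 for Acaca. With the counts of Gm5182 added to Acaca, a choice made after seeing the data, the WT stiffness effect was -1.43 and the KO against WT difference on the stiff hydrogel 1.63.

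Acacb (ENSMUSG00000042010, chr5:114284596-114388822), the mitochondrial carboxylase whose malonyl-CoA restrains fatty acid oxidation, was at 87.9 and 91.0 CPM in WT soft, 49.8 and 49.3 in WT stiff, 67.9 and 71.5 in KO soft and 69.2 and 79.1 in KO stiff. The KO libraries lay between the WT groups. From soft to stiff it fell by 0.85 ± 0.06 on the log2 scale in WT (edgeR adjusted p = 5.41e-09), the KO value was 0.09 ± 0.06 (adjusted p = 0.742) and the interaction 0.94 ± 0.09 (adjusted p = 2.60e-07). On the stiff hydrogel KO was above WT by 0.58 ± 0.07 (edgeR adjusted p = 6.25e-07), a call lost without KO stiff library 2 (0.47). On the soft hydrogel KO was at 77.9% of WT, a log2 fold change of -0.36 ± 0.06 under the fold threshold (edgeR adjusted p = 3.79e-04).

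Fasn (ENSMUSG00000025153, chr11:120696672-120715373) had another order. It was at 1071 and 1173 CPM in WT soft, 496 and 502 in WT stiff, 408 and 429 in KO soft and 479 and 459 in KO stiff. WT soft alone was high, and the KO libraries were all below the WT stiff libraries. It fell by 1.17 ± 0.04 (log2) from soft to stiff in WT (edgeR adjusted p = 3.20e-13), and by 1.42 ± 0.04 from WT to KO on the soft hydrogel (adjusted p = 1.84e-13), the largest genotype difference of the 10 genes there. On the stiff hydrogel the genotypes differed by -0.09 ± 0.04 (edgeR adjusted p = 0.103), and stiff against soft in KO was 0.17 ± 0.04 (unadjusted p = 0.00151 in edgeR, adjusted p = 0.543). The interaction of 1.33 ± 0.06 (edgeR adjusted p = 1.66e-11) thus came with a KO level of 37.3% of WT soft on the soft hydrogel and 41.8% on the stiff one, whereas Acaca in KO was at 113% and 115%.

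Scd1 (ENSMUSG00000037071, chr19:44382894-44396318), the liver's main stearoyl-CoA desaturase, was highest in WT soft, as Fasn was, with a smaller range. It was at 15142 and 14734 CPM in WT soft, 10928 and 11025 in WT stiff, 10994 and 10813 in KO soft and 10742 and 10635 in KO stiff, or 1.07% to 1.49% of all counts of a library. The WT stiff and KO soft libraries overlapped, and both WT soft libraries were higher than the rest. WT stiffness (-0.44 ± 0.02) and KO on the soft hydrogel (-0.45 ± 0.02) were under the fold threshold on the log2 scale, with edgeR adjusted p of 6.75e-12 and 2.53e-11. On the stiff hydrogel the genotypes differed by -0.04 ± 0.02 (edgeR adjusted p = 0.137), a sign that turned with scaling by library size alone (0.02).

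Elovl6 (ENSMUSG00000041220, chr3:129326004-129432144), which lengthens palmitate to stearate, was low in KO on both hydrogels. It was at 138 and 135 CPM in WT soft, 105 and 111 in WT stiff, 70.6 and 73.3 in KO soft and 75.0 and 70.8 in KO stiff. All 4 KO libraries were below all 4 WT libraries. KO was lower than WT by a log2 fold change of -0.92 ± 0.05 on the soft hydrogel (edgeR adjusted p = 4.39e-10) and -0.57 ± 0.05 on the stiff one (adjusted p = 5.59e-08). Stiffness in WT gave -0.33 ± 0.05, under the fold threshold (edgeR adjusted p = 4.59e-05).

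Thrsp (ENSMUSG00000035686, chr7:97062145-97066937), or Spot 14, is a lipogenic protein without a known catalytic activity of its own and was the lowest of the 10 in CPM. It was at 31.7 and 31.3 CPM in WT soft, 28.4 and 24.3 in WT stiff, 11.8 and 15.0 in KO soft and 11.8 and 13.3 in KO stiff. All 4 KO libraries were below all 4 WT libraries. KO was lower by a log2 fold change of -1.24 ± 0.11 on the soft hydrogel (edgeR adjusted p = 2.13e-07) and -1.07 ± 0.12 on the stiff one (adjusted p = 4.37e-07). Neither the stiffness effect in WT (-0.26 ± 0.11, edgeR adjusted p = 0.0645) nor the interaction (0.17 ± 0.16, adjusted p = 0.473) was called.

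Me1 (ENSMUSG00000032418, chr9:86463424-86578006), a source of cytosolic NADPH, ran the other way between genotypes. It was at 433 and 413 CPM in WT soft, 329 and 329 in WT stiff, 517 and 511 in KO soft and 488 and 498 in KO stiff. All KO libraries were above all WT libraries. The KO against WT log2 fold change was 0.58 ± 0.04 on the stiff hydrogel (edgeR adjusted p = 3.84e-10) and 0.28 ± 0.04 on the soft one, under the fold threshold (adjusted p = 2.48e-05), as was the stiffness effect in WT of -0.36 ± 0.04 (adjusted p = 4.72e-07). Of the windows of its longest transcript, 21.6% also occur in another gene, Gm7049, with 3.88 counts on average.

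**Figure D2:**
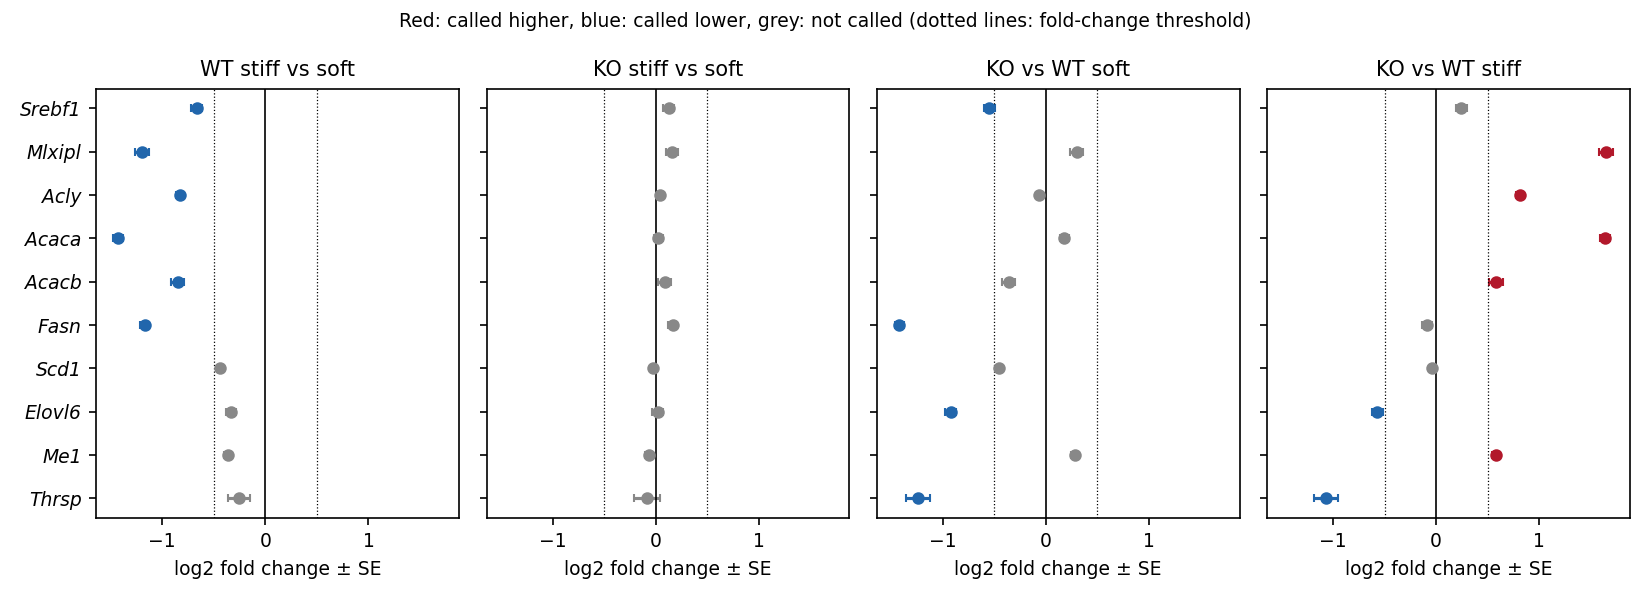
Log2 fold changes (x axis) of the 10 genes (y axis) in 4 comparisons, with the SE as error bars. Red and blue points were called higher and lower, grey points were not called, and dotted lines mark a log2 fold change of 0.5 in either direction. The KO stiff against soft panel holds values from -0.08 to 0.17 and no coloured point, and the KO against WT stiff panel holds 5 red and 2 blue points.

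Sorted by these calls, with their fold threshold of 0.5 on the log2 scale, the genes fell into kinds that moved with the threshold. Elovl6 and Thrsp were called low in KO on both hydrogels, a sorting met by 3.72% of all genes. Mlxipl, Acly, Acaca and Acacb were called lower on the stiff hydrogel in WT and higher in KO than WT on that hydrogel, that is, restored, a sorting met by 7.91% of all genes. Since the calls themselves define these kinds, the counts are a description without a test. Srebf1 and Fasn met neither definition: both were called lower in WT stiff and in KO soft, and not called between the genotypes on the stiff hydrogel. Scd1 met neither, since it was called in none of these comparisons, nor did Me1, whose WT stiffness effect was under the fold threshold. Without a minimum fold change, Srebf1 and Me1 also met the definition of restored. With a threshold of 1, only Mlxipl and Acaca remained restored and only Thrsp remained low in KO on both hydrogels. The Acacb difference between genotypes on the stiff hydrogel was 0.47 without KO stiff library 2.

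The level that KO cells kept on the stiff hydrogel was set against that of WT cells on the soft one. There, Fasn (-1.26 ± 0.04 on the log2 scale), Elovl6 (-0.90 ± 0.05) and Thrsp (-1.32 ± 0.12) were called lower and 0 genes higher, beside 4.72% and 2.16% of all genes. With edgeR, 3 genes were higher at an unadjusted p under 0.05, and DESeq2 called 0 higher. Acly was at 98.8% of the WT soft level (-0.02 ± 0.03, edgeR adjusted p = 0.797). Among the restored genes Acaca (0.21 ± 0.05) and Mlxipl (0.46 ± 0.06) were above that level and Acacb (-0.27 ± 0.06) below it, and Srebf1 (-0.42 ± 0.05) and Scd1 (-0.48 ± 0.02) were below and Me1 (0.22 ± 0.04) above, all under the fold threshold with edgeR adjusted p of 0.00469 or less. Mlxipl was called with scaling by library size alone (0.51). Mlxipl and Scd1 were called without WT soft library 2 (0.56 and -0.51), and Srebf1 without WT soft library 1 (-0.51).

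Summed over the 10 genes, the level was 18379 and 18102 CPM in WT soft, 12718 and 12820 in WT stiff, 13518 and 13418 in KO soft and 13412 and 13292 in KO stiff. Scd1 made up most of these sums. Without it the other 9 genes summed to 3236 and 3368 CPM in WT soft, 1789 and 1795 in WT stiff, 2524 and 2605 in KO soft and 2670 and 2657 in KO stiff, so that WT stiff was the lowest group by this sum.

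Between genes, levels were compared as RPKM (CPM per kilobase of gene length). Scd1 was highest in every group, at 3054 ± 59.1 RPKM (SD, n = 2) in WT soft, followed by Acly at 169 ± 2.39, Me1 at 109.8 ± 3.68 and Fasn at 103 ± 6.61. These 4 kept their order in all groups. Below them the WT soft order was Srebf1 (30.5 ± 2.55 RPKM), Mlxipl (24.3 ± 2.69), Elovl6 (21.2 ± 0.32), Acaca (17.6 ± 0.39), Thrsp (14.4 ± 0.15) and Acacb (9.29 ± 0.23), with no overlap between the libraries of neighbours. In both KO groups Mlxipl stood above Srebf1 (33.4 ± 1.61 against 22.8 ± 0.55 RPKM in KO stiff), Acaca above Elovl6 and Acacb above Thrsp. In WT stiff the order was Srebf1, Elovl6, Thrsp, Mlxipl, Acaca and Acacb.

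**Figure D3:**
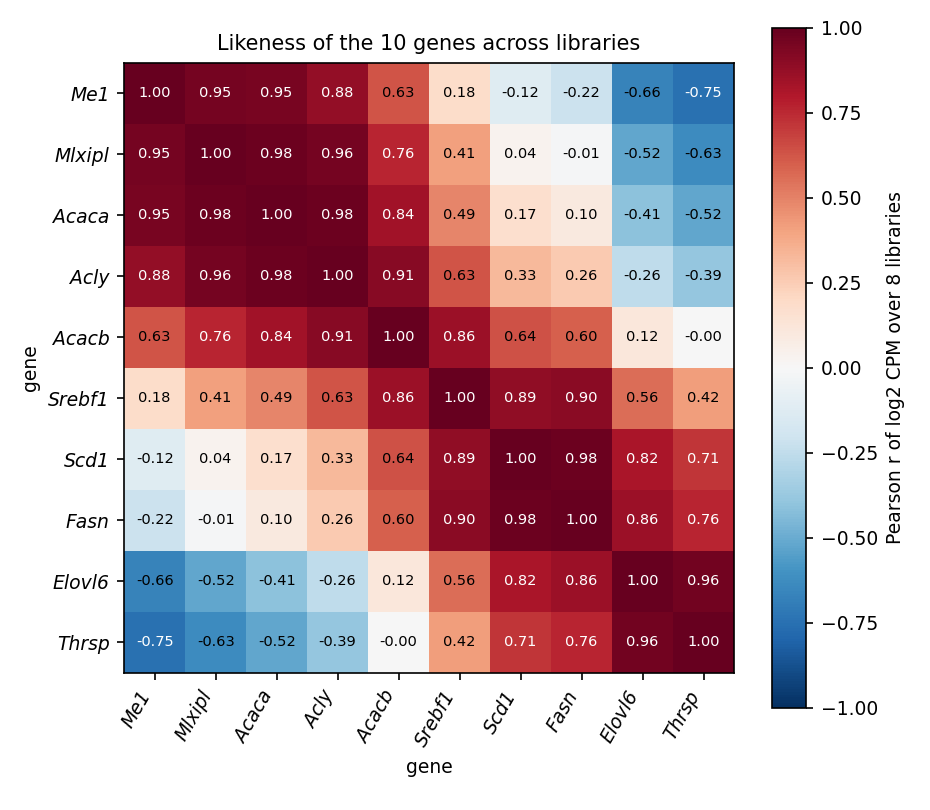
Pearson r of log2 CPM between each pair of the 10 genes over the 8 libraries, with genes on both axes and colour from blue (-1) to red (1). Me1, Mlxipl, Acaca and Acly form 1 red block (0.88 to 0.98), Scd1, Fasn, Elovl6 and Thrsp another (0.71 to 0.98), and pairs drawn from Me1 or Mlxipl with Elovl6 or Thrsp are negative (-0.75 to -0.52).

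The patterns over the 8 libraries are described by r, where the points share 4 group means. Acaca ran with Mlxipl and Acly (both 0.98), Scd1 with Fasn (0.98) and Elovl6 with Thrsp (0.96). Srebf1 was closer to Fasn (0.90) and Scd1 (0.89) than to Mlxipl (0.41), and Acacb was high with Acly (0.91) and with Srebf1 (0.86). Among tested genes averaging 100 counts or more, the 5 most like Srebf1 were Zfp36, Coq8a, Cpn1, Adcy1 and Ndrg2 (r of 0.97 to 0.99). The 5 most like Fasn were Itih4, Slc7a5, Cyp2d40, Serpina3n and Aldh1l1 (0.99 for each). Zfp36, for instance, was at 103 ± 8.36 CPM in WT soft (SD, n = 2), 61.4 ± 2.34 in WT stiff, 70.4 ± 0.22 in KO soft and 75.5 ± 0.85 in KO stiff.

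**Figure D4:**
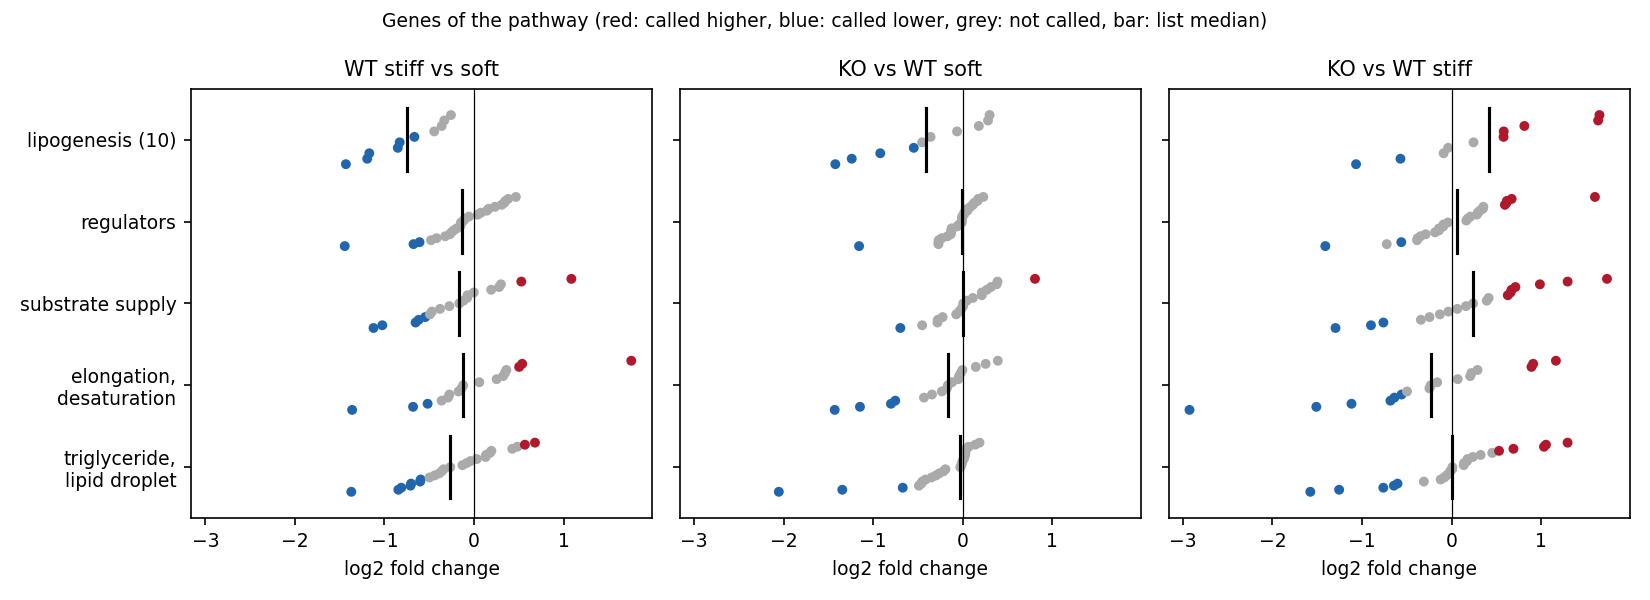
Log2 fold changes (x axis) of single genes in 5 lists of the pathway (y axis) for 3 comparisons, with red and blue for genes called higher and lower, grey for genes not called and black bars for list medians. The 10 lipogenesis genes have the lowest median in WT stiff against soft (-0.75) and the highest in KO against WT on the stiff hydrogel (0.41).

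Around the 10 genes, 4 wider lists of the pathway were counted. Their counts are set beside the shares of all tested genes called in the same direction, which were 9.26% lower and 10.0% higher in WT stiff against soft, 4.65% and 2.02% in KO against WT soft and 15.0% and 13.7% in KO against WT stiff. In KO stiff against soft 0 genes of any of them were called by edgeR or DESeq2. At an unadjusted p under 0.05 the counts higher and lower were 3 and 2 of 26 regulators, 1 and 1 of 19 supply genes, 1 and 0 of 17 elongation and desaturation genes, and 2 and 0 of 25 triglyceride and lipid droplet genes.

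Of the 26 regulators, 3 were called lower (beside 9.26% of all genes) and 0 higher in WT stiff against soft (median log2 fold change -0.13), although 7 were higher at an unadjusted p under 0.05 in edgeR and 0 were called higher by DESeq2. The 3 were Irs1, the insulin receptor substrate (-1.44 ± 0.17), Insig2, which retains SREBPs in the endoplasmic reticulum (-0.68 ± 0.05), and the fatty acid receptor gene Ppara (-0.61 ± 0.17). Irs1 was at 7.90 and 9.33 CPM in WT soft, 2.84 and 3.45 in WT stiff and 8.36 to 10.0 in KO. On the stiff hydrogel these 3 were higher in KO (1.60 ± 0.17, 0.67 ± 0.05 and 0.62 ± 0.18), as were Nr1h3, which encodes LXRα (0.61 ± 0.07), and the AMP kinase subunit gene Prkaa2 (0.60), named after its value was seen. Mlxip, the paralog of Mlxipl, was called lower there (-0.56 ± 0.14).

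Insig1, a SREBP target that also retains SREBPs, was the only regulator called in KO against WT on the soft hydrogel (-1.16 ± 0.06, edgeR adjusted p = 6.00e-11), and it was lower on the stiff one too (-1.41 ± 0.06, adjusted p = 3.90e-13). It was at 141 and 141 CPM in WT soft, 162 and 169 in WT stiff and 58.6 to 66.4 in the 4 KO libraries. The KO libraries did not overlap with WT. Its stiffness effect in WT was 0.24 ± 0.05, under the fold threshold, where those of Elovl6 and Thrsp were negative. Srebf2, which encodes the cholesterol-directed SREBP-2, was at 126 and 136 CPM in WT soft, 166 and 167 in WT stiff, 114 and 118 in KO soft and 128 and 128 in KO stiff, with no call. Mid1ip1, the paralog of Thrsp that also binds acetyl-CoA carboxylase, was at 50.2 to 65.6 CPM over all libraries and was called in no comparison.

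Of 19 genes that supply acetyl-CoA, NADPH and glycolytic carbon, 5 were called lower and 2 higher in WT stiff against soft (median -0.16), beside 9.26% and 10.0% of all genes. The 5 included Gckr, a regulator of liver glucose metabolism (-1.12 ± 0.05), Pdhb, a pyruvate dehydrogenase subunit (-1.02 ± 0.04), and Pdk1 (-0.65 ± 0.07) and Pdk2 (-0.62 ± 0.12), kinases that inhibit pyruvate dehydrogenase. Pklr, the liver pyruvate kinase and a known ChREBP target, ran against Mlxipl. It was at 395 and 407 CPM in WT soft, 849 and 853 in WT stiff, 324 and 335 in KO soft and 350.3 and 343 in KO stiff, a rise of 1.09 ± 0.04 (log2) in WT (edgeR adjusted p = 1.04e-13) and a KO against WT difference of -1.30 ± 0.04 on the stiff hydrogel (adjusted p = 3.48e-15). The other called higher, G6pdx (0.53 ± 0.06), averaged 839 counts and overlaps Ikbkg of the opposite strand, which averaged 3586, so that its counts are uncertain.

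In KO against WT on the stiff hydrogel 7 of the 19 supply genes were called higher and 3 lower, beside 13.7% and 15.0% of all genes. The highest were Pdhb (1.74 ± 0.04), Gckr (1.30 ± 0.05), Pgd of the pentose phosphate pathway (0.99 ± 0.03) and the mitochondrial pyruvate carrier gene Mpc2 (0.71 ± 0.06), and the lowest Pklr, the pyruvate dehydrogenase kinase gene Pdk4 (-0.90 ± 0.13) and G6pdx (-0.76 ± 0.07). On the soft hydrogel Pdhb was called higher (0.81 ± 0.04), and the acetyl-CoA synthetase gene Acss2 (-0.70, named after its value was seen) lower.

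Of 17 tested genes of elongation and desaturation beyond the members, 3 were called lower and 3 higher in WT stiff against soft, beside 9.26% and 10.0% of all genes. The lower ones were the elongase genes Elovl2 (-1.36 ± 0.04) and Elovl7 (-0.52 ± 0.05) and the dehydratase gene Hacd3 (-0.68 ± 0.05), and in KO these 3 were called higher than WT on the stiff hydrogel (1.17 ± 0.04, 0.89 ± 0.05 and 0.91 ± 0.05). The higher ones were Fads3 (1.76 ± 0.05), Hsd17b12 (0.54 ± 0.04) and Hacd1 (0.50 ± 0.13), of whose windows 21.6% also occur in Gm11451. All 3 were called lower in KO than WT on the stiff hydrogel (-2.93 ± 0.06, -0.64 ± 0.04 and -0.56 ± 0.13). In that comparison 6 of the 17 genes were called lower (7 by DESeq2) and 3 higher, beside 15.0% and 13.7% of all genes. The 6 also included the desaturase genes Fads2 (-1.12 ± 0.04) and Fads1 (-0.68 ± 0.04), and the list median was -0.23.

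On the soft hydrogel 4 genes of that list were called lower in KO and 0 higher, although 3 were higher at an unadjusted p under 0.05 in edgeR and 0 were called higher by DESeq2. They were Fads3 (-1.43 ± 0.06), Scd2 (-1.15 ± 0.14), the delta-6 desaturase gene Fads2 (-0.80 ± 0.04) and, named after its value was seen, Elovl5 (-0.75). Fads2 was at 288 and 305 CPM in WT soft, 374 and 387 in WT stiff and 169 to 177 in KO. Its KO libraries were all below WT, as with Elovl6, but the WT stiffness effect was positive (0.36 ± 0.04, under the fold threshold). Scd2 shares sequence with Scd1 in 2.37% of its windows and had a mean of 221 counts against 255723 for Scd1, so its values are uncertain.

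Of 25 tested genes of triglyceride synthesis and lipid droplets, 7 were called lower (6 by DESeq2) and 2 higher in WT stiff against soft (median -0.27), beside 9.26% and 10.0% of all genes. Among the lower were the droplet protein gene Cidec (-1.37 ± 0.10), the phosphatidate phosphatase gene Lpin2 (-0.84 ± 0.04), the acyltransferase gene Dgat2 (-0.71 ± 0.05) and Cidea (-0.70 ± 0.19), and the higher were Lipe (0.68 ± 0.17) and Lpin3 (0.57 ± 0.09). In KO against WT on the stiff hydrogel 5 were called higher, led by Cidec (1.30 ± 0.10), Lpin2 (1.05 ± 0.04), Cidea (1.03 ± 0.19) and Mgll (0.69 ± 0.09), and 5 lower, among them Plin2 (-0.64 ± 0.03).

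Gpam, the mitochondrial glycerol-3-phosphate acyltransferase and a SREBP-1c target, was low in KO on both hydrogels. It was at 191 and 177 CPM in WT soft, 208 and 212 in WT stiff and 70.1 to 72.8 in KO, with log2 fold changes of -1.35 ± 0.05 on the soft (edgeR adjusted p = 2.36e-12) and -1.58 ± 0.05 on the stiff hydrogel (adjusted p = 1.65e-14). Pnpla3, another SREBP-1c target, had a mean of 46.4 counts per library and was at 3.89 and 4.67 CPM in WT soft, 2.75 and 2.08 in WT stiff and 0.703 to 1.39 in KO, with -2.05 ± 0.31 on the soft hydrogel (edgeR adjusted p = 8.61e-05) and -1.26 ± 0.34 on the stiff one (adjusted p = 0.00445). The third gene called lower in KO on the soft hydrogel in this list was Hsd17b13 (-0.67), named after its value was seen, and 0 were higher, also by DESeq2, with 1 higher at an unadjusted p under 0.05 in edgeR.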

How the data were processed

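RNA of mouse primary hepatocytes was sequenced in 8 libraries. Paired-end reads were aligned with HISAT2 2.0.5 and counted on genes with featureCounts by the authors, and the deposited values are raw counts without normalization. The submitters' processing notes also list DESeq2 1.20.0, edgeR 3.22.5, GATK 4.1.4.1 and mm9. The annotation and the handling of strand and of multiply matching reads are not given in the sources used here. Positions in the deposited table differ from those of GENCODE M21 (GRCm38) for all 10 genes and are printed as deposited, with no build named. Gene lengths for RPKM are those the authors deposited beside the counts, as another column of bases per gene.

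Counts were filtered with filterByExpr by group, scaled by TMM (factors 0.978 to 1.02) and fitted for all 8 libraries together with glmQLFit in edgeR 4.0.16 (R 4.3.3), without a replicate term, giving a common biological coefficient of variation of 0.0542. Comparisons used two-sided glmQLFTest with Benjamini-Hochberg adjustment over the 14279 genes. Log2 CPM used a prior count of 2. The steps were tested on simulated data. Sequence shared between genes was counted in windows of 64 bases along the longest GENCODE transcript. Replicates differed by more than sampling noise in a chi-square test, so each library counted as 1. Between groups, the deviations of libraries with equal replicate numbers had correlations from -0.10 to 0.04. With 2 libraries a group these cannot decide whether equal numbers share an animal or culture, which the labels do not say.

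The 10 genes, the lists and the alternatives were chosen with earlier results of these data known. Besides the 10 genes, the text names the called genes of each list in WT stiff against soft or KO against WT stiff with the largest absolute log2 fold change, up to 4 in each direction, where counts averaged 100 or more, and Nr1h3, Insig1, Insig2, Srebf2, Mid1ip1, Pnpla3 and Pklr in any case. One gene of the supply list is not reported here and was left out of its counts and medians. Alternatives covered DESeq2 1.42.0, scaling, filters, the fold threshold, a replicate term, robust fitting, fits of 4 libraries and each library left out.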

Additional observations from a re-analysis of the deposited data

Results flagged for a closer look

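The stiffness effect (log2 fold change of stiff against soft) differed between KO and WT, by an interaction called in edgeR's quasi-likelihood test, in 26 genes, counted among the lipogenesis genes and those picked by the naming rule from the 4 wider lists (the deleted Yap1 and Wwtr1 are not counted). DESeq2 called 24 of the 26, all but Ppara (0.74, adjusted p = 0.0600) and Elovl7 (0.49, under the fold threshold). Each value here is the KO effect minus the WT effect. Over all tested genes, 8.64% had an interaction called positive and 8.21% one called negative. The naming rule picked genes of the wider lists by calls in comparisons that share libraries with the interaction. The count of 26 therefore follows in part from that choice and is a list without a test.

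Among the lipogenesis genes these were Acaca (1.46), Mlxipl (1.35), Fasn (1.33), Acacb (0.94), Acly (0.88) and Srebf1 (0.79), with edgeR adjusted p from 1.63e-11 to 3.63e-07. In each of them both WT stiff libraries were below both WT soft libraries, which held for all 10 lipogenesis genes and for 34.8% of all tested genes.

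Among regulators the values were 1.59 for Irs1, 0.74 for Ppara and 0.54 for Insig2. Of all 26 regulators, 3 interactions were called positive and 1 negative, the last in a gene outside the naming rule, and DESeq2 called 2 and 0. The supply genes had Gckr at 1.08, Pdhb at 0.93, Pdk2 at 0.73, Pdk1 at 0.69 and Pgd at 0.60, and in the negative direction Pklr at -1.01 and G6pdx at -0.54. Of all 19 supply genes, 6 were called positive and 2 negative.

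In elongation and desaturation the interaction was 1.40 for Elovl2, 0.66 for Hacd3 and 0.50 for Elovl7, and -1.50 for Fads3 and -0.62 for Hsd17b12. For triglyceride and lipid droplet genes it was 1.30 for Cidec, 0.89 for Cidea, 0.87 for Lpin2, 0.79 for Dgat2 and 0.66 for Mgll. Of all 17 elongation and desaturation genes, 3 were called positive and 2 negative, and of all 25 triglyceride and lipid droplet genes 7 and 0. Of these 25 genes, 4 were negative at an unadjusted p under 0.05 in edgeR, and DESeq2 also called 0 negative.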

How the results depend on the processing

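Of 1136 fold changes of the 10 genes under 20 other settings (the addition of Gm5182 to Acaca was chosen after seeing the data), 1089 kept their direction and their side of the threshold, 16 lost and 22 gained a call, and 9 turned sign. All 9 were uncalled values near 0. With library size only, they were Scd1 in KO against WT stiff (0.019) and Acly in KO stiff against WT soft (0.034). With each library left out, the values in KO stiff against soft ranged from -0.023 to 0.068 for Acaca, -0.018 to 0.18 for Acacb, -0.027 to 0.052 for Elovl6 and -0.26 to 0.085 for Thrsp, and the Thrsp interaction from -0.0018 to 0.34. The cause was not tested. Scaling moved the median of all genes by at most 0.07, and a prior count of 0.5 left the same 5 genes most like Srebf1 and the same 5 most like Fasn.

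Without a minimum fold change and with one over 1 (log2), all genes called came to 5859 and 1244 (WT stiff against soft), 2624 and 353 (KO against WT soft), 7299 and 2097 (KO against WT stiff), 4192 and 1040 (interaction) and 2682 and 377 (KO stiff against WT soft). Of the 10 genes, 9 were called without a minimum in KO against WT soft and in KO stiff against WT soft. Over 1, 3 were called in WT stiff against soft, in KO against WT stiff and in the interaction, and 2 in KO against WT soft. In KO stiff against soft the 3 genes called became 50 without the low-count filter, 1 with a fold over 1, 1 with robust fitting and 9 in a fit of 4 libraries.

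With each library left out, calls in KO stiff against soft ranged from 1 to 8, and calls among the 10 genes in KO stiff against WT soft from 3 to 5. The fit with the replicate number as a block called 2705, 3, 895, 4071, 2330 and 946 genes in WT and KO stiff against soft, KO against WT soft and stiff, the interaction and KO stiff against WT soft, and changed no call among the 10 genes. A library left alone in its group was assumed to vary like the others, and 2 libraries a group limit the precision of every value.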
